A study of Mus musculus with 7 samples.

Results

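The genes described here mostly encode proteins of the ribosome. They were taken from the deposited gene table by its KEGG annotation, as the genes assigned to the ribosome pathway, and they number 133 of 28666 genes. Of these, 86 have names that begin with Rpl or Rps and were assigned by name to the cytosolic ribosome. They comprise 53 in the large subunit and 33 in the small subunit. Rpl34-ps1 and Rpl31-ps12, named as pseudogenes, carry the annotation too and are counted among the 86. Another 43 have names that begin with Mrpl or Mrps and belong to the mitochondrial ribosome, 28 in its large and 15 in its small subunit. The remaining 4 genes include Fau, Rsl24d1 and Gm4925. All 86 cytosolic and all 43 mitochondrial genes passed the filter on low counts, as did 3 of the other 4. Gm4925 did not, with 5 counts in Immature 3, 13 in Mature 4 and 0 in the other libraries. A further 40 genes of the mitochondrial ribosome carry no ribosome annotation in the table and were counted apart.

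Messenger RNA was sequenced from mouse bone marrow-derived dendritic cells (BMDCs) labelled as immature (3 libraries) or mature (4 libraries) by developmental stage. Bone marrow of female C57BL/6 mice aged 6 to 8 weeks was cultured for 7 days with GM-CSF and IL-4, and the cells were kept in a Transwell system with MC38, a mouse colon carcinoma line. Treatment was with DON, an antagonist of glutamine, for 24 h, and the study also names a culture with the solvent DMSO beside DON at 5 μM. The labels do not say which culture gave which library, which surface markers defined the sort, or whether the libraries came from separate animals or cultures. P-values therefore measure the spread between these libraries, which may be technical. In bulk RNA, fewer cells of a type and less RNA per cell cannot be told apart, so each value below is an average over the sorted cells.

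Ribosomes are built from a large and a small subunit, each a complex of ribosomal RNA with many small proteins, most of them needed in equal numbers. The messenger RNAs of the cytosolic ribosomal proteins are among the most abundant of the cell, and many of them begin with a C followed by a run of pyrimidines, the 5′ terminal oligopyrimidine (TOP) motif, through which mTOR signalling controls their translation and stability. Mitochondrial ribosomal proteins are encoded by nuclear genes, made in the cytosol and imported, and their ribosomes translate the few respiratory chain proteins encoded by mitochondrial DNA. Dendritic cells take up antigen while immature and present it after maturation, a change known to go with altered protein synthesis and metabolism.

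Total counts per library were 54846746 to 67973086. The library Mature 3 stood apart from the other mature libraries by reading short transcripts higher, and each result is therefore given with and without it. All 8 dendritic cell markers examined were detected, and their summed level was 10360 to 11090 CPM (counts relative to the TMM-adjusted total of each library) in the immature and 13920 to 19630 CPM in the mature libraries, with 5 markers higher and 1 lower in mature cells. Markers of heart muscle also moved with the groups. The summed level of 8 of them was 5.04 to 6.29 CPM in the immature libraries, 27.3 CPM in Mature 1, and 595, 710 and 616 CPM in Mature 2, 3 and 4, and all 8 were higher in mature cells. Erythroid markers summed to at most 0.270 and 3.59 CPM in the immature and mature libraries, with 3 of 5 higher, B cell markers to at most 0.307 and 1.15 CPM, T cell markers to at most 2.19 and 5.13 CPM, neutrophil markers to at most 2.94 and 2.18 CPM, and epithelial markers to at most 22.9 and 22.2 CPM. At most 1 marker was called in each of the B cell, T cell, neutrophil and epithelial lists. The part of the muscle transcripts in the ribosomal protein results was not tested, but Mature 1, in which they were low, was also set alone against the immature libraries below.

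The start of a transcript is where the TOP motif lies, so the bases around the start are shown for 6 genes of the cytosolic ribosome and 3 of the mitochondrial ribosome that recur below. Each stretch holds 15 bases before the RefSeq start and 15 from the start on, in the direction of transcription, from RefSeq promoters on GRCm38.p6. Capitals mark an unbroken run of C and T of at least 5 letters that begins with C and covers the start base, searched on the transcribed strand alone. Rpl15 lies at chr14:18270972-18271001 on the minus strand, Rps27 at chr3:90213634-90213663 on the minus strand, Fau at chr19:6057932-6057961 on the plus strand and Rps6 at chr4:86857353-86857382 on the minus strand. Rpsa lies at chr9:120127751-120127780, Rplp0 at chr5:115559452-115559481, Mrps6 at chr16:92058321-92058350, Mrpl22 at chr11:58171649-58171678 and Mrpl14 at chr17:45686334-45686363, all on the plus strand.
Rpl15: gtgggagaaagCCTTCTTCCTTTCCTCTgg
Rps27: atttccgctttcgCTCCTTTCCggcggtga
Fau: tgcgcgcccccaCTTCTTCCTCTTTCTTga
Rps6: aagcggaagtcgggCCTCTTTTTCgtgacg
Rpsa: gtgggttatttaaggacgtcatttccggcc
Rplp0: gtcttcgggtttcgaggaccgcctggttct
Mrps6: tgctttcgccgtccgggagctgaccggccg
Mrpl22: ccggcgtttgatcccggaggcttccgtagg
Mrpl14: ctcacggagaaCCCCTggcgcgcaggcgca

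Such a run covered the start in 21 of the 65 cytosolic ribosomal protein genes found in the RefSeq promoter table (32.3%). It did so in 2 of the 39 mitochondrial genes found there (5.13%) and in 2542 of all 27025 entries of that table (9.41%). Some genes have several starts there, and a member was counted if any of them had such a run, as for Rps24, Rps21, Rpl34 and Rpl35a. A run of at least 8 letters anywhere in the 30 bases can overlap the first kind. It was held by 27 of the 65 cytosolic genes (41.5%), 5 of the 39 mitochondrial genes (12.8%) and 11.1% of all entries. The share depends on the exact base annotated as the start, so a gene without a run in this window may still carry one at a nearby start. The median log2 fold change between mature and immature cells was 0.53 for the 21 cytosolic genes with a run at the start and 0.52 for the 44 without, and 0.26 and 0.27 without Mature 3.

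Transcripts of the cytosolic ribosomal proteins made up a larger share of all counts in each of the 4 mature libraries than in any immature one. The 86 genes held 3.87%, 4.32% and 4.28% of all counts in Immature 1, 2 and 3, and 5.57%, 5.29%, 8.93% and 5.60% in Mature 1, 2, 3 and 4. Mature 3 was far above the other mature libraries, which lay close together and above the immature range. The means were 4.16% ± 0.245 (SD, n = 3) and 6.35% ± 1.73 (SD, n = 4), a ratio of 1.53, and without Mature 3 the mature mean was 5.49% ± 0.173 (SD, n = 3), a ratio of 1.32. As a share of the summed FPKM (fragments relative to gene length and to the depth of the library), the range was 6.21% to 6.85% in immature cells and 8.36% to 12.4% in mature cells.

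The 43 mitochondrial ribosomal protein genes showed no such separation. They held 0.105%, 0.116% and 0.113% of all counts in the immature libraries, and 0.109%, 0.105%, 0.149% and 0.109% in Mature 1, 2, 3 and 4. Apart from Mature 3, the mature values lay within the immature range. The means were 0.111% ± 0.00575 (SD, n = 3) and 0.118% ± 0.0208 (SD, n = 4), and the difference of 0.00688 percentage points turned to -0.00347 without Mature 3.

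**Figure D1:**
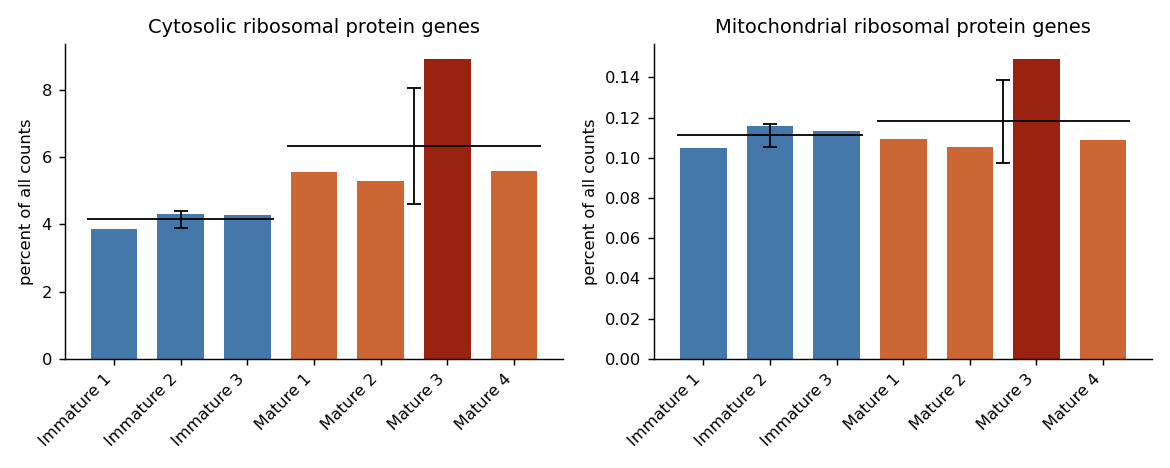
Share of all counts, in percent, held by the 86 cytosolic (left) and the 43 mitochondrial (right) ribosomal protein genes in each of the 7 libraries, 1 bar per library, with axes that start at 0 and with lines and error bars for the mean and SD of each group. The cytosolic bars of the 4 mature libraries (5.29% to 8.93%) all exceed the immature bars (3.87% to 4.32%), whereas the mitochondrial bars overlap except for Mature 3 (0.149%).

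By edgeR's quasi-likelihood test with Benjamini-Hochberg adjustment over 17461 genes, 26 of the 86 genes rose and 0 fell, where 23.2% of all genes tested were called higher and 22.9% lower in mature cells. No cytosolic gene was lower at an unadjusted p under 0.05 either, and DESeq2 and limma each called 49 higher and 0 lower, where they called 22.2% and 31.0% of all genes higher. The fitted log2 fold change was above 0 for all 86 genes, from 0.06 to 2.20, with a median of 0.52 and an interquartile range of 0.39 to 0.71, against a median of 0.05 for all genes tested. The subunits were alike, with 16 of 53 large subunit genes higher (median 0.54) and 10 of 33 small subunit genes higher (median 0.52).

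Without Mature 3, 54 of the 86 genes were higher and 1 was lower, where 29.1% of all genes were called higher and 28.3% lower, and the median log2 fold change was 0.27. All 26 genes called in the 7 libraries were among those 55. The fold changes were smaller without Mature 3, and more genes passed the threshold. Leaving out Immature 1, 2 or 3 instead gave 7, 8 and 14 of the 86 genes higher and 0 lower, where 17.3%, 17.7% and 17.2% of all genes were called higher, so that the cytosolic share was then below that of all genes. With Mature 3 alone left out, the fitted value kept its sign in 78 of the 86 genes. The genes that turned slightly negative there included Rpl8, Rplp1, Rps27l, Rpl10a, Rps2, Rpl36al and Rpl3, of which Rpl36al passed the test. With Mature 1 alone against the 3 immature libraries, 45 genes were higher and 0 lower, with a median of 0.30, where 20.2% of all genes were called higher and 22.5% lower, under the assumption that Mature 1 varies as the immature libraries do. Mature 1, 2 and 4 all lay above the 3 immature libraries for 48 of the 86 genes (55.8%), where 31.8% of all genes tested did so, and all below for 2 genes (2.33%), where 32.0% of all genes did so.

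Most cytosolic changes were modest. With a log2 fold change of at least 1 also required, 5 of the 86 genes were higher and 0 lower, where 13.2% of all genes were called higher and 9.95% lower under that rule. The median departure from the immature mean, over the 86 genes, was -0.12, 0.04 and 0.08 on the log2 scale in Immature 1, 2 and 3, and 0.28, 0.18, 1.16 and 0.28 in Mature 1, 2, 3 and 4.

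**Figure D2:**
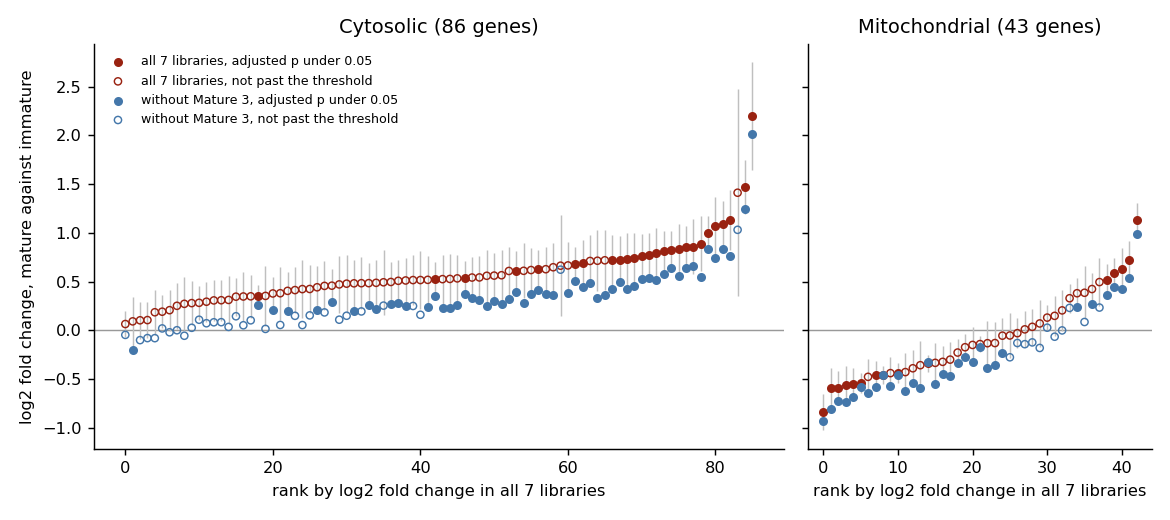
Log2 fold change of mature against immature cells for each cytosolic (left, 86 genes) and mitochondrial (right, 43 genes) ribosomal protein gene, ranked on the horizontal axis by the value in all 7 libraries and shown also without Mature 3, with bars for the standard error in all 7 libraries and filled points for an adjusted p under 0.05. All 86 cytosolic values lie above 0 in the 7 libraries (median 0.52) and 78 do so without Mature 3 (median 0.27), and the mitochondrial medians are -0.14 and -0.33.

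Mature 3 gave the highest value of the 7 libraries for 85 of the 86 cytosolic genes (98.8%). The exception was Rpl31-ps12, named as a pseudogene. Mature 3 was also the highest for 27 of the 43 mitochondrial genes (62.8%), and for 25.2% of all genes tested. Divided by the average of Mature 1, 2 and 4, the level in Mature 3 had a median of 1.86 over the cytosolic genes (range 1.15 to 2.30), 1.52 over the mitochondrial genes (range 1.04 to 2.01) and 1.00 over all genes. The transcripts of both groups are short, with median lengths of 680 and 998 bases against 1898 bases for all genes. Across genes, which are not independent replicates and share these libraries, the log2 ratio of Mature 3 fell with transcript length, with Spearman's rho of -0.451 over 86 cytosolic, -0.473 over 43 mitochondrial and -0.376 over 17436 genes. The fold change without Mature 3 had a rho of -0.00926 with transcript length over the cytosolic and -0.0575 over the mitochondrial genes. The length first planned was instead derived from counts, FPKM and library totals. Its medians, where it could be derived, were 1883.8, 2936.5 and 4191.7 bases over the cytosolic, mitochondrial and all genes. The FPKM values thus rest on longer lengths than those of the annotated transcripts. With the derived length, the rho of the Mature 3 ratio was weaker over the cytosolic genes. It was -0.104 over 85 cytosolic, -0.331 over 43 mitochondrial and -0.539 over 12447 genes. For the fold change without Mature 3 it was -0.106 and 0.151 over the cytosolic and mitochondrial genes. With a length correction fitted in each library, 40 cytosolic genes were higher and 0 lower in all 7 libraries (median 0.43), where 25.7% of all genes were called higher and 24.1% lower, and the part of transcript length beyond that correction was not tested.

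**Figure D3:**
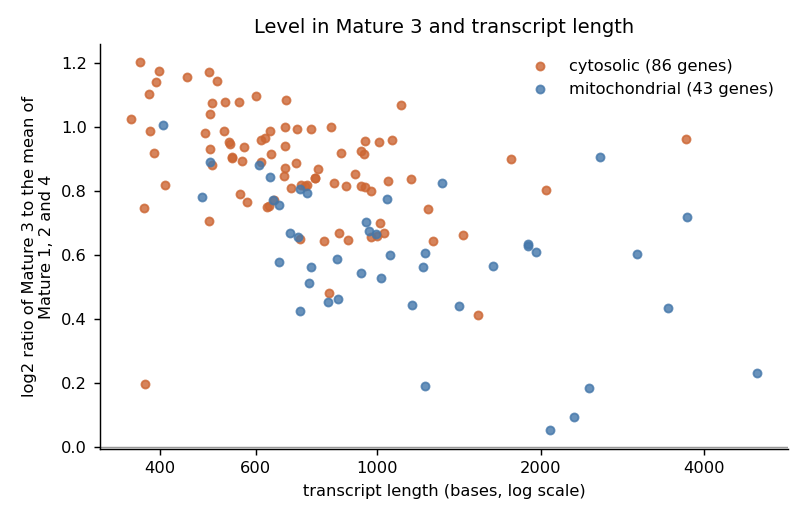
Log2 ratio of Mature 3 to the mean of Mature 1, 2 and 4 (vertical axis) against transcript length in bases (horizontal log axis), 1 point per gene, for the 86 cytosolic and the 43 mitochondrial ribosomal protein genes, with a line at a log2 ratio of 0. All points lie above the line (ratios of 1.15 to 2.30 and 1.04 to 2.01), and shorter transcripts tend to lie higher.

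Among the small subunit proteins, Rpsa, Rps27 and Rps6 spanned the range of responses. Rpsa, a small subunit protein also known as the laminin receptor, was at 2280.3, 2536 and 2339.9 CPM in Immature 1, 2 and 3, and at 3975, 4028, 7796 and 4512 CPM in Mature 1, 2, 3 and 4. Every mature library exceeded every immature one by a wide margin. It rose by a log2 fold change of 1.09 ± 0.24 (SE, adjusted p = 0.00533), and by 0.83 without Mature 3. Rps27, a zinc finger protein of the small subunit, was at 97.2, 101 and 117 CPM in the immature libraries and at 192, 171, 395 and 162 CPM in the mature ones. The groups did not overlap, and Mature 3 was more than double the next library. The log2 fold change of Rps27 was 1.13 ± 0.31 (SE, adjusted p = 0.0158), and 0.76 without Mature 3 (adjusted p = 4.03e-05).

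Rps6, whose protein is the classical substrate of the S6 kinases below mTOR, was at 969, 1043 and 1080.5 CPM in immature cells and at 1251, 1138, 2131 and 1243 CPM in mature cells. Its groups did not overlap, but the gap between Immature 3 and Mature 2 was narrow. The log2 fold change of 0.48 did not pass the test in all 7 libraries (adjusted p = 0.093), and that of 0.26 without Mature 3 did (adjusted p = 0.00552). Rps3a1, 1 of the 3 genes with the highest mean FPKM, was at 1060.4, 1201 and 1157 CPM against 1218, 1104, 2051 and 1209 CPM. Mature 2 lay within the immature range and the difference did not pass the test (log2 fold change 0.29, adjusted p = 0.284). The smallest log2 fold changes among called small subunit genes with a mean FPKM of at least 10 were those of Rps4x (0.52, adjusted p = 0.0371), Rps7 (0.54, adjusted p = 0.0345) and Rps25 (0.62, adjusted p = 0.032).

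In the large subunit, Rpl17, Rpl37a and Rpl15 rose most among genes with a mean FPKM of at least 10. Rpl15 was at 451, 485 and 516 CPM in the immature libraries and at 847, 775, 1323 and 918 CPM in the mature ones. All 4 mature libraries lay well above the immature range, and Mature 3 was nearer to the others than for most cytosolic genes. The log2 fold change was 1.00 ± 0.18 (SE, adjusted p = 0.00195), and 0.83 without Mature 3. The gene overlaps Nkiras1, which lies on the other strand. Rpl37a was at 158, 186 and 218 CPM in the immature libraries and at 322, 294, 652 and 309 CPM in the mature ones. Its groups were apart, and its log2 fold change was 1.07 ± 0.29 (SE, adjusted p = 0.0152), or 0.74 without Mature 3.

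Rpl17, which lines the tunnel through which the new protein leaves the ribosome, was at 283, 185 and 332 CPM in Immature 1, 2 and 3 and at 675, 599, 1104 and 586 CPM in Mature 1, 2, 3 and 4. The groups were apart, and the immature libraries were spread more widely than for most members. Its log2 fold change of 1.47 ± 0.28 (SE, adjusted p = 0.0024) was the highest among genes of that level. The value is uncertain, since 8 pseudogenes named after Rpl17 held 51.9% of the counts of the family. The pseudogenes summed to 526, 685 and 529 CPM in the immature and 440, 487, 846 and 584 CPM in the mature libraries. In Immature 2, where Rpl17 was lowest, they were above the other immature libraries, and in Mature 3 both were highest. The family as a whole was at 808, 870.5 and 862 CPM against 1115, 1086, 1950.0 and 1170.0 CPM. Summed in this way, an alternative chosen after seeing the data, the family rose by a log2 fold change of 0.66 ± 0.21 (SE, adjusted p = 0.0288).

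Other members share sequence with near copies too. Of the 133 genes, 59 have 232 pseudogenes named after them in the table, which held 7.12% of the counts of those families, and in 11 families they held more than 10%. Rpl34-ps1 and Rpl31-ps12 are members themselves and were not counted as such pseudogenes. For Rpl21, 14 pseudogenes held 68.1% of the family's counts, and its log2 fold change was 0.79 (adjusted p = 0.034) alone and 0.70 (adjusted p = 0.0254) with them. Summing every member with its pseudogenes left the number of cytosolic genes called higher at 26. On the same strand, 42 members overlap another annotated gene.

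The P stalk, formed by Rplp0, Rplp1 and Rplp2, recruits the translation factors that hydrolyse GTP, and it includes the most abundant transcript of the group. Rplp0, with the highest mean FPKM (1496), was at 2324, 2471 and 2449 CPM in immature cells and at 2556, 2421, 4064 and 2694 CPM in mature cells. Mature 2 lay within the immature range, and the log2 fold change of 0.28 did not pass the test (adjusted p = 0.226). Rplp1 was at 541, 639 and 640.0 CPM against 582, 536, 1208 and 602 CPM, so that all mature libraries except Mature 3 lay within or just below the immature range. Its log2 fold change was 0.27 in all 7 libraries (adjusted p = 0.458) and -0.06 without Mature 3. Rplp2, named because it completes the stalk, had values of 0.47 (adjusted p = 0.228) and 0.11 (adjusted p = 0.261).

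Rpl5 and Rpl11 assemble with the 5S ribosomal RNA and can also bind Mdm2, a regulator of p53. Rpl5 was at 1015, 1077 and 1061 CPM in immature cells and at 1073, 991, 1656 and 1075 CPM in mature cells. Mature 1 and 4 lay within the immature range and Mature 2 below it, and the difference did not pass the test (log2 fold change 0.19, adjusted p = 0.407). Rpl11 was at 419.9, 472 and 464 CPM in immature cells and at 663, 635, 1173 and 697 CPM in mature cells. All 4 mature libraries lay above the immature ones, with a log2 fold change of 0.81 ± 0.21 (SE, adjusted p = 0.0136), or 0.58 without Mature 3. Rpl11 thus passed the test and Rpl5 did not, and the difference between these partners was not itself tested.

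Rpl3, which lies near the peptidyl transferase centre, had the smallest fold change of the 86. It was at 1102, 1157 and 1150.4 CPM in the immature libraries and at 1086, 1029.5, 1508 and 1127 CPM in the mature ones. Mature 1 and 2 lay below the immature range, Mature 4 within it and Mature 3 above it. The log2 fold change was 0.06 ± 0.13 (SE, adjusted p = 0.732). The lowest log2 fold changes among called large subunit genes with a mean FPKM of at least 10 were those of Rpl4 (0.35, adjusted p = 0.0437) and Rpl23a (0.61, adjusted p = 0.0415). Rpl4 was at 1472, 1562 and 1496 CPM in immature cells and at 1763, 1710.2, 2362 and 1852 CPM in mature cells, and the groups did not overlap.

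Some ribosomal proteins are made as fusions with ubiquitin or a ubiquitin-like protein. Fau, in which a ubiquitin-like protein is joined to a small subunit protein, was at 398, 452 and 454 CPM in immature cells and at 714, 663, 1457 and 725 CPM in mature cells. The groups were apart, and Fau rose by a log2 fold change of 1.03 ± 0.27 (SE, adjusted p = 0.0138), or 0.71 without Mature 3 (adjusted p = 1.15e-05). Rps27a, a fusion of ubiquitin with a small subunit protein, had values of 0.35 (adjusted p = 0.301) and 0.05 (adjusted p = 0.569). Rsl24d1, an assembly factor of the large subunit that the annotation also lists, had values of -0.27 (adjusted p = 0.0628) and -0.32 (adjusted p = 0.00231).

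**Figure D4:**
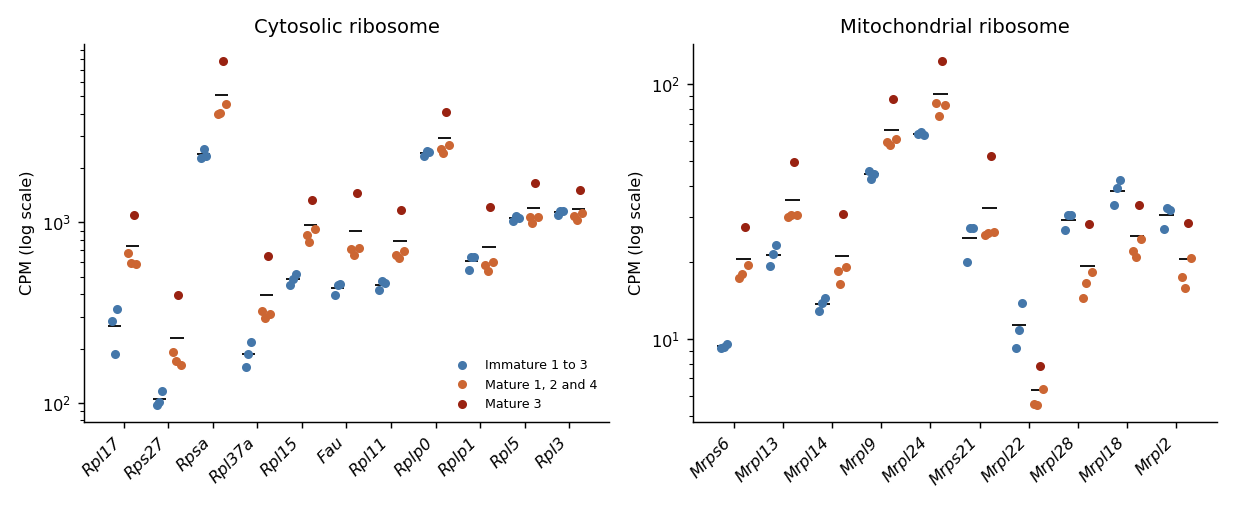
Level of the ribosomal protein genes described in the text in each library, in CPM on a log axis, for the cytosolic ribosome (left) and the mitochondrial ribosome (right), with immature libraries, mature libraries and Mature 3 in different colours and a line at each group mean. Groups are separate for genes such as Rpsa (2280.3 to 2536 against 3975 to 7796) and overlap for Rpl3 (1102 to 1157 against 1029.5 to 1508), and Mrpl22 is lower in all mature libraries (5.50 to 7.83 against 9.18 to 13.9).

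Several cytosolic ribosomal proteins have a second gene of similar sequence, and 15 of 16 genes of such pairs were examined, with Rpl10l not analysed here. Of the 15, 6 rose and 1 fell, where 23.2% and 22.9% of all genes did, with a median log2 fold change of 0.48. Without Mature 3, 7 were higher and 2 lower, where 29.1% and 28.3% of all genes were, with a median over the 15 of 0.21. In mean FPKM, which scales by length, Rps27 was at 88.3 in immature and 206 in mature cells, and Rps27l, a target of p53, at 49.9 and 63.4. Rps27 rose (above), while Rps27l did not pass the test (log2 fold change 0.25, adjusted p = 0.427). Rpl22 was at mean FPKM of 49.0 and 94.6, and rose by a log2 fold change of 0.86 ± 0.21 (SE, adjusted p = 0.0101), from 145, 171 and 171 CPM to 249.8, 238, 433 and 255 CPM. Its paralog Rpl22l1 was at mean FPKM of 15.5 and 20.5 and did not pass the test (log2 fold change 0.31, adjusted p = 0.34).

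Rpl7 was at a mean FPKM of 273 in immature and 468 in mature cells and rose by a log2 fold change of 0.68 (adjusted p = 0.0121). Its paralog Rpl7l1, which the annotation does not count among the ribosome and which is known as an assembly factor, was at 76.6, 80.9 and 84.5 CPM in immature cells and at 60.5, 57.2, 68.2 and 64.2 CPM in mature cells. Here every mature library lay below every immature one, Mature 3 included, and the log2 fold change was -0.37 ± 0.09 (SE, adjusted p = 0.0078). Rpl36a and Rpl36al were at mean FPKM of 66.9 and 81.5 in immature and of 99.6 and 92.2 in mature cells. Rpl36al was at 114, 130.2 and 133 CPM in immature cells and at 111, 99.2, 213 and 111 CPM in mature cells. Without Mature 3 it was the 1 cytosolic gene called lower (log2 fold change -0.20, adjusted p = 0.0341), whereas in all 7 libraries its value was 0.09 (adjusted p = 0.798). Rpl36a itself did not pass the test (0.48, adjusted p = 0.171).

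Rpl3l, the paralog of Rpl3 found mainly in heart and skeletal muscle, had the highest log2 fold change of the 86 genes from a very low level. It was at 0.409, 0.701 and 1.01 CPM in Immature 1, 2 and 3, and at 0.955, 3.70, 4.56 and 3.82 CPM in Mature 1, 2, 3 and 4. Mature 1 lay within the immature range while the other mature libraries lay above it. The heart muscle markers summed to 27.3 CPM in Mature 1, above the immature range of 5.04 to 6.29 CPM, and to 595 to 710 CPM in the other mature libraries. The log2 fold change of Rpl3l was 2.20 ± 0.55 (SE, adjusted p = 0.0107), and the part of muscle transcripts in it was not tested. Its mean FPKM was 0.370 and 1.86, against 315 and 352 for Rpl3. Rpl39 rose (0.74, adjusted p = 0.0434), and Rpl39l, known mainly from male germ cells, had 0, 10 and 17 counts in immature and 38, 15, 37 and 6 counts in mature cells, with no call (adjusted p = 0.313). Rps4l (-0.18, adjusted p = 0.421) and Rpl10 (0.38, adjusted p = 0.104) did not pass the test.

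**Figure D5:**
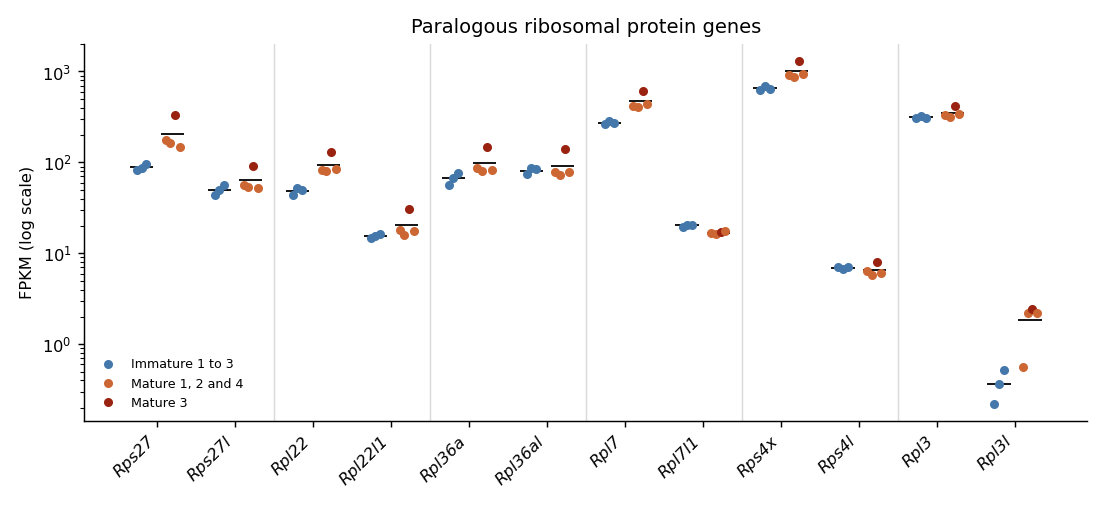
FPKM (log axis) of paralogous ribosomal protein genes in each library, with the pairs side by side, immature libraries, mature libraries and Mature 3 in different colours and a line at each group mean. Rps27, Rpl22 and Rpl7 rise from means of 88.3, 49.0 and 273 to 206, 94.6 and 468, while Rpl7l1 goes from 20.3 to 16.9 and Rpl3l stays under the level of Rpl3 in every library.

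Mitochondrial ribosomal protein genes moved in both directions. Of the 43, 5 rose and 10 fell in all 7 libraries, with a median log2 fold change of -0.14, and 16 had a value above 0. The share that fell, 10 of 43, was close to the 22.9% of all genes called lower. The balance depended on the scaling, with 8 higher and 5 lower after upper quartile scaling and 8 higher and 8 lower with library totals alone, where 27.6% and 27.2% of all genes were called higher and 19.4% and 19.5% lower. Without Mature 3, 7 were higher and 25 lower, with a median of -0.33, where 29.1% of all genes were called higher and 28.3% lower. All 15 genes called in the 7 libraries were among those 32, and 38 of 43 kept the sign of their value. Leaving out any other single library gave 4 to 6 genes lower, where 18.2% to 22.3% of all genes were. Mature 1, 2 and 4 all lay below the immature libraries for 26 of the 43 (60.5%), where 32.0% of all genes did, and all above for 7 (16.3%), where 31.8% did.

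By subunit, 4 large subunit genes rose and 7 fell of 28, and 1 small subunit gene rose and 3 fell of 15. Of all genes, 23.2% rose and 22.9% fell, so the shares that fell were close to that of all genes. Without Mature 3 the subunit counts were 5 and 16, and 2 and 9, where 29.1% of all genes were called higher and 28.3% lower. With Mature 1 alone against the immature libraries, 5 were higher and 18 lower, with a median of -0.26, where 20.2% of all genes were called higher and 22.5% lower. The median departure from the immature mean over the 43 genes was -0.10, 0.04 and 0.05 on the log2 scale in Immature 1, 2 and 3, and -0.28, -0.36, 0.30 and -0.33 in Mature 1, 2, 3 and 4. Mature 3 was thus the 1 mature library with a median above the immature mean.

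Levels were much lower than in the cytosolic group. The mean FPKM ran from 1.75 for Mrps10 to 36.2 for Mrps21, with a median of 7.77, against 0.313 for Rpl39l to 1496 for Rplp0 and a median of 242 in the cytosolic group. The genes of each group are scattered over the genome, on 16 and 19 chromosomes. Mrps21, the gene with the highest mean FPKM, was at 20.1, 27.3 and 27.4 CPM in immature cells and at 25.6, 26.0, 52.3 and 26.4 CPM in mature cells. All mature libraries except Mature 3 lay within the immature range, and the difference did not pass the test (log2 fold change 0.38, adjusted p = 0.283).

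Mrps6, a small subunit protein of the mitochondrial ribosome, rose most. It was at 9.23, 9.35 and 9.56 CPM in Immature 1, 2 and 3, and at 17.4, 18.0, 27.5 and 19.5 CPM in Mature 1, 2, 3 and 4. The immature libraries were nearly equal and the mature ones far above them, with a log2 fold change of 1.13 ± 0.17 (SE, adjusted p = 0.000707), or 0.99 without Mature 3. It was the 1 mitochondrial gene past a log2 fold change of 1. Mrps6 overlaps Slc5a3 on the same strand, so reads in the shared stretch cannot be told apart.

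The other genes that rose were Mrpl13, Mrpl14, Mrpl9 and Mrpl24, all of the large subunit. Mrpl13 was at 19.3, 21.6 and 23.4 CPM in immature cells and at 30.1, 30.6, 49.7 and 30.7 CPM in mature cells. Its groups were apart, and 3 of the mature libraries were nearly equal (log2 fold change 0.72 ± 0.19, SE, adjusted p = 0.0145). Mrpl9 was at 45.8, 42.6 and 44.3 CPM in immature cells and at 59.2, 57.6, 87.9 and 60.9 CPM in mature cells. It showed the same pattern, at a smaller size (0.58 ± 0.15, SE, adjusted p = 0.0132). Mrpl14 was at 12.9, 13.9 and 14.4 CPM against 18.6, 16.5, 30.9 and 19.1 CPM (0.63, adjusted p = 0.0375), and Mrpl24 at 63.7, 64.8 and 63.5 CPM against 84.3, 74.9, 123 and 83.0 CPM (0.51, adjusted p = 0.0301). In both, the lowest mature library was Mature 2, and it still lay above the immature range.

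Mrpl22, Mrpl28, Mrpl18 and Mrpl2, also of the large subunit, fell most. Mrpl22 was at 9.18, 10.9 and 13.9 CPM in immature cells and at 5.55, 5.50, 7.83 and 6.38 CPM in mature cells. Every mature library, Mature 3 included, lay below every immature one, with a log2 fold change of -0.84 ± 0.19 (SE, adjusted p = 0.00624), or -0.94 without Mature 3. Mrpl28 was at 26.7, 30.7 and 30.6 CPM in immature cells and at 14.4, 16.7, 28.3 and 18.3 CPM in mature cells. Mature 3 lay within the immature range and the others well below it, so that the log2 fold change was -0.60 (adjusted p = 0.0465) with Mature 3 and -0.81 (adjusted p = 0.000124) without it.

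Mrpl18 was at 33.5, 39.0 and 41.9 CPM in immature cells and at 22.2, 20.9, 33.4 and 24.7 CPM in mature cells. Mature 3 almost reached the lowest immature library (log2 fold change -0.59, adjusted p = 0.019). Mrpl2 was at 27.1, 32.6 and 32.2 CPM in immature cells and at 17.4, 15.8, 28.6 and 20.8 CPM in mature cells. Here again Mature 3 lay within the immature range and the other mature libraries below it (-0.57, adjusted p = 0.0423, and -0.74 without Mature 3). The other genes that fell were Mrpl27, Mrpl19, Mrpl3, Mrps18a, Mrps5 and Mrps2, with log2 fold changes from -0.55 to -0.34, which are named to complete the count.

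Of the 40 mitochondrial ribosome genes outside the annotation, 1 was higher and 5 were lower in all 7 libraries (median -0.10), both smaller shares than the 23.2% and 22.9% of all genes. Without Mature 3, 2 were higher and 17 lower (median -0.23), where 29.1% and 28.3% of all genes were. Those called, named to complete the count, were Mrpl45, which rose (0.42, adjusted p = 0.0247), and Mrps18b, Mrps28, Mrpl51, Mrpl42 and Mrps22, which fell. Mrps18b was at 30.2, 30.3 and 26.8 CPM in immature cells and at 16.5, 14.2, 17.8 and 16.4 CPM in mature cells. All mature libraries, Mature 3 among them, were well below the immature ones (log2 fold change -0.84 ± 0.10, SE, adjusted p = 0.000218). Of the 5 of these 40 genes whose names do not begin with Mrp, edgeR's test called 0 in all 7 libraries, with 1 lower at an unadjusted p under 0.05, and DESeq2 and limma called 0. Dap3, a GTP-binding small subunit protein, had values of -0.29 (adjusted p = 0.0837) and -0.37 without Mature 3 (adjusted p = 0.00128).

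Genes that act with the ribosome were taken from fixed lists, whose counts stand beside 23.2% of all genes called higher and 22.9% lower in the 7 libraries, and 29.1% and 28.3% without Mature 3. Of 16 translation factors and related proteins listed for a TOP motif in their messenger RNAs, 9 rose and 0 fell, with a median log2 fold change of 0.42. Without Mature 3, 12 were higher and 2 lower (median 0.33). A run of C and T covered the start in 5 of the 10 found in the RefSeq promoter table (50.0%). Nap1l1 is in this list and in that of the chaperones below. No gene of the list was lower at an unadjusted p under 0.05 in all 7 libraries. DESeq2 called 10 higher and 0 lower and limma 11 higher and 0 lower, where they called 22.2% and 31.0% of all genes higher. Eef1b2, an exchange factor of elongation factor 1, was at 342, 389 and 379.5 CPM in immature cells and at 519, 506, 1042 and 548 CPM in mature cells. It rose with all mature libraries above the immature ones (0.82, adjusted p = 0.0277), as did Nap1l1, a histone chaperone (0.77 ± 0.11, SE, adjusted p = 0.000582), and Eef1a1, which brings aminoacyl-tRNA to the ribosome (0.42 ± 0.11, SE, adjusted p = 0.014). Eef2, which moves the ribosome along the messenger RNA, did not pass the test (0.15, adjusted p = 0.149).

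Of 16 genes that link mTOR to the TOP messenger RNAs or regulate ribosome production, 3 rose, a smaller share than the 23.2% of all genes, and 6 fell, where 22.9% of all genes did. The median was -0.23, and 3 were higher and 8 lower without Mature 3 (median -0.12). Rptor, the subunit of mTOR complex 1 that binds its substrates, was at 63.7, 57.9 and 61.8 CPM in immature cells and at 173, 159.7, 127 and 166 CPM in mature cells, a rise of 1.36 ± 0.12 on the log2 scale (SE, adjusted p = 2.34e-05). Myc, a transcription factor that drives ribosome production, was at 36.2, 35.7 and 35.1 CPM against 7.88, 5.11, 6.98 and 7.64 CPM, a log2 fold change of -2.37 ± 0.15 (SE, adjusted p = 4.02e-06). Both were clearly separate between the groups, in opposite directions. Larp1, which binds the TOP motif, fell by 0.44 on the log2 scale (SE 0.09, adjusted p = 0.00432), and Eif4ebp1, a repressor of translation that mTOR inactivates, fell by 0.91 (SE 0.15, adjusted p = 0.00131).

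Of 10 chaperones that escort ribosomal proteins to assembly, 2 rose and 6 fell (median -0.38), where 23.2% and 22.9% of all genes did, and 1 was higher and 6 lower without Mature 3 (median -0.31). Ltv1, an assembly factor of the small subunit, was at 27.1, 24.4 and 26.9 CPM in immature cells and at 12.1, 10.5, 13.8 and 11.5 CPM in mature cells. The groups were far apart, with a log2 fold change of -1.13 ± 0.11 (SE, adjusted p = 6.55e-05). Of 12 mitochondrial translation factors, 2 rose and 2 fell, both smaller shares than over all genes, with a median of -0.02, and the same counts were found without Mature 3 (median -0.11). Lrpprc, which stabilises mitochondrial messenger RNAs, had a log2 fold change of -0.76 (adjusted p = 0.000149) and Gfm1, a mitochondrial elongation factor, one of -0.69 (adjusted p = 0.000117), while Tufm, another elongation factor, did not pass the test (0.05, adjusted p = 0.777).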

How the data were processed

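RNA-seq of 3 immature and 4 mature BMDC libraries was analysed. Messenger RNA was poly(A)-selected and the libraries were stranded. The submitters' processing notes name cutadapt 1.9, HISAT2 2.2.1, StringTie 2.1.6, DESeq2, edgeR and the build mm9, but 90.3% of the gene identifiers shared with GENCODE M21 have its coordinates on GRCm38. The strand setting of the counting is not given in the sources used here. The table that the authors deposited gives raw counts as whole numbers for each gene, and FPKM values, scaled by gene length and library total. The table also holds the authors' own fold changes and p-values, which were not used.

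The ribosomal protein genes and the gene lists were chosen with earlier results of these data known. Counts were fitted with edgeR 4.0.16 in R 4.3.3 (filterByExpr, TMM, quasi-likelihood test, Benjamini-Hochberg adjustment over 17461 genes, threshold 0.05) on all 7 libraries without covariates. The standard error is the log2 fold change divided by the square root of F. Total counts were 54846746 to 67973086, and counting intervals would cover counting error only. No pair of libraries of a group agreed within sampling noise: the median chi-square per gene was 3.83 to 25.6, where noise gives 0.455. Replicate numbers are shared between the groups but were not taken to pair the libraries.

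Genes were named by a rule: the 5 highest and 5 lowest log2 fold changes among called cytosolic genes with a mean FPKM of at least 10 in the higher group, the 4 highest and 4 lowest among called mitochondrial genes with at least 1, the 3 and 2 genes of highest mean FPKM, fixed genes and paralogs, and the 2 largest changes of each list. Others complete a count or a complex and were chosen after their values were seen. Rpl10l and Elane were not analysed here, and the values of some genes are not reported here.

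Alternatives were other scalings (DESeq2 size factors, upper quartile, library totals, TMM without the ribosome genes), DESeq2 1.42.0, limma 3.58.1 on log2(FPKM + 1) and log2(FPKM + 0.1) with a floor of FPKM 1 reached by 3 libraries or no floor, no filter on counts, a fold change criterion, leaving out each library, the replicate number as a block, and a length offset (lowess span 0.3 on GENCODE M21 transcript lengths). Chosen after seeing the data were the length offset without Mature 3, members summed with their pseudogenes, and Mature 1 alone. The fits were tested on simulated data. Sequences are from RefSeq promoters (GRCm38.p6), matched by symbol for 65 of 86 cytosolic, 39 of 43 mitochondrial and 3 of 4 other members. Tables and figures used Python 3.11.15, pandas 2.3.3, numpy 2.4.6, scipy 1.17.1 and matplotlib 3.10.9.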

Additional observations from a re-analysis of the deposited data

Results flagged for a closer look

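The highest mature library stood far from the other mature libraries in 29 of the 58 levels examined, and in all 29 it was Mature 3. The gap between Mature 3 and the next library, as a share of the whole range of the 4 mature libraries, exceeded Dixon's 95% critical value, which chance exceeds in about 1 in 20 groups. For the share of all counts the gap was 0.914 for the cytosolic and 0.909 for the mitochondrial genes, and for the share of summed FPKM it was 0.879 and 0.861. Among small subunit genes it was 0.874 for Rps27, 0.859 for Rpsa, 0.941 for Rps25, 0.88 for Rps3a1, 0.886 for Rps6, 0.895 for Rps27a, 0.922 for Fau and 0.901 for Rps27l. For genes of the P stalk it was 0.834 for Rplp0 and 0.903 for Rplp1. Other large subunit genes gave 0.92 for Rpl37a, 0.874 for Rpl5, 0.886 for Rpl11, 0.914 for Rpl22, 0.847 for Rpl22l1, 0.922 for Rpl39, 0.84 for Rpl10, 0.9 for Rpl36a, 0.893 for Rpl36al and 0.83 for Rpl7. Mitochondrial ribosomal protein genes gave 0.969 for Mrpl13, 0.89 for Mrpl9 and 0.97 for Mrps21, and translation-related genes gave 0.922 for Eef1b2 and 0.853 for Nap1l1. Mrpl22, Mrpl28, Mrpl18 and Mrpl2, which fell in mature cells, are not among them. Neither are Mrps6, Mrpl14, Mrpl24, Rpl17, Rpl15, Rpl4, Rps4x, Rps7 and Rpl23a, which rose. The values share 1 library and are not independent. Mature 3 was already known to read short transcripts higher, so the rate of 1 in 20 does not apply to the number flagged.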

How the results depend on the processing

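The median log2 fold change kept its sign under every alternative run for it, from 0.26 to 0.64 in the cytosolic and from -0.33 to -0.03 in the mitochondrial group, but the number of genes past the threshold moved, and the cause was not tested. The main counts were 26 and 0 cytosolic, 5 and 10 mitochondrial, and 1 and 5 outside genes (higher and lower). Counts over 1.5 times away from these, or changed from or to 0, are given here, except for Mature 1 alone. The other counts not given were nearer to the main ones. DESeq2 gave 49 cytosolic genes higher, where 22.2% of all genes were. Limma with a pseudocount of 1 or 0.1 gave 49 cytosolic, 8 mitochondrial and 2 outside genes higher, where 31.0% and 30.9% of all genes were. Limma without a filter gave 5 mitochondrial and 3 outside genes lower, where 12.0% of all genes were. Library totals gave 51, 8 and 2 higher, where 27.2% of all genes were. Upper quartile scaling gave 40 and 8 higher, with 5 mitochondrial and 2 outside genes lower, where 27.6% and 19.4% of all genes were. That turns the mitochondrial balance of 5 higher and 10 lower. Without a filter on counts, 15 cytosolic genes were higher and 3 outside genes lower, where 13.3% and 13.0% of all genes were. The length offset gave 40, 8 and 2 higher and 17 mitochondrial and 8 outside genes lower, where 25.7% and 24.1% of all genes were. Without Mature 3 it gave 52, 8 and 3 higher and 2, 24 and 18 lower, where 28.7% and 28.4% of all genes were. With a fold change of at least 1 required, 5, 1 and 0 genes were higher, and 0 mitochondrial and 0 outside genes were lower, where 13.2% and 9.95% of all genes were. The replicate block left 6 mitochondrial genes lower and 0 outside genes higher and 3 lower, where 18.1% of all genes were higher and 18.9% lower. The length offset with the replicate block gave 46 cytosolic and 2 outside genes higher, where 20.7% of all genes were. The deviations of same-numbered libraries correlated by 0.0728, -0.103 and 0.0573, and not every library correlated best with its own number, so they share only a number. Mature 1 alone gave 45 cytosolic genes higher and 18 mitochondrial and 12 outside genes lower.

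Leaving out 1 library gave 7 to 54 cytosolic genes higher and 0 to 1 lower, 2 to 7 mitochondrial genes higher and 4 to 25 lower, and 0 to 2 outside genes higher and 2 to 17 lower. In these fits 17.2% to 29.1% of all genes were called higher and 18.2% to 28.3% lower. The highest counts were those without Mature 3. The cytosolic count was 7, 8 and 14 without Immature 1, 2 and 3, which leave 2 immature libraries, and the mitochondrial count of lower genes was 6, 4 and 5 there and 6 without Mature 1, 2 or 4. For the outside genes the counts of lower genes were 3, 2 and 2 without Immature 1, 2 and 3, and 3, 2 and 2 without Mature 1, 2 and 4. Of 1151 values of 54 named genes under the alternatives, 1032 kept direction and side of the threshold, 72 lost the call and 32 gained one. Those that changed sign, none of them past the test in all 7 libraries, were small. Without Mature 3 they were Rplp1 (-0.0572), Rps27l (-0.000594), Rpl3 (-0.0484), Rpl36al (-0.204) and Tufm (-0.0415), and the mitochondrial share difference (-0.00347 percentage points). Over the fits that left out 1 library, the highest values of the same quantities were 0.399, 0.371, 0.132, 0.215, 0.121 and 0.0112. With the length offset and without Mature 3 they were Rplp1 (-0.155), Mrps21 (-0.0428), Rps27l (-0.0963), Rpl22l1 (-0.0491), Rpl3 (-0.0273) and Rpl36al (-0.198). With Mature 1 alone they were Rplp1 (-0.0341), Rpl3 (-0.0405), Rpl36al (-0.156) and Tufm (-0.0368). Library totals, upper quartile scaling and no filter moved the median of all genes by 0.105, 0.110 and 0.117 on the log2 scale, and relative to that median the cytosolic value was 0.45, 0.47 and 0.37, against 0.47.

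Immature libraries number 3 and mature libraries 4, which limits the precision of every comparison, and Rpl3l, Rpl39l and Gm4925 had few counts.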
